A study of Mus musculus with 25 samples.

Results

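The genes described here are the markers of alveolar type 2 cells and the surfactant they make, followed in mouse lung after bleomycin. A member is a gene on a fixed list of 10 (Sftpa1, Sftpb, Sftpc, Sftpd, Abca3, Lamp3, Etv5, Napsa, Slc34a2 and Muc1) with a probe set, a group of short array probes, annotated to its symbol alone. Of the 10 genes 9 had such a probe set, 16 probe sets in all, among the 18193 genes and 34945 probe sets of the array with a single symbol. All 9 lay above the array median in enough arrays to be among the 12062 genes tested. Lamp3 was read only by a probe set shared with Ppid, so its values are given apart and untested.

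Alveolar type 2 cells are the cuboidal cells of the alveolar wall that make, store, secrete and take back surfactant, and from which flat type 1 cells are renewed after injury. Surfactant is a film of phospholipid and 4 proteins that lowers surface tension at the air interface. SP-B and SP-C, small hydrophobic proteins cut from larger precursors, are packed with the lipid in lamellar bodies, while SP-A and SP-D are collectins that bind microbes and help to regulate surfactant turnover. The genes of SP-A, SP-B and SP-D are also expressed by club cells of the airway, and Muc1 by several epithelia.

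Each lung came from a female mouse and was read on 1 Affymetrix mouse 430 2.0 array. Mice lacking FP, the prostaglandin F2α receptor encoded by Ptgfr, are called FP-KO, and wild-type mice WT. Every group carries the bleomycin label, a drug that injures the lung and is used to produce fibrosis: 1 mg/kg, dissolved in 40 ul of saline, was given intratracheally at the start. FP-KO lungs were taken at baseline (Day 0) and on Days 7 and 14 (n = 4 each), and WT lungs at baseline (n = 4), on Day 7 (n = 4) and on Day 14 (n = 5). Age, strain background and how FP was deleted are not given in the sources used here, and the titles name each array as 1 mouse, with nothing more on whether the mice were independent, so p-values measure the spread between these arrays. The series sets the time course of FP-KO lungs beside that of WT lungs.

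Deposited intensities have a trimmed mean of 500 on every array, and array medians of 112.3 to 151.5. Ptgfr read 21.1 to 57.6 in the 12 FP-KO lungs and 122.6 to 383.7 in the 13 WT lungs, without overlap. On the first principal component of all tested genes, 42.0% of the variance, the library labelled FP-KO Day 14 No. 2 lay at -28.9, among the Day 0 lungs (-35.0 to -24.8), while the other FP-KO Day 14 lungs lay at -5.37 to 1.44 and WT Day 14 lungs at 13.4 to 25.6. The mean of its 18S probe sets was 4323, the highest of the 25 arrays. The second component, 16.9%, split the Day 14 arrays into FP-KO No. 1 and 2 with WT No. 1 to 3 (27.7 to 30.1) and FP-KO No. 3 and 4 with WT No. 4 and 5 (-2.28 to 1.35), a division that the labels do not explain. For members, values at Day 14 are therefore also given within these sets and without FP-KO No. 2 where it matters. Genes outside the list are given over all Day 14 arrays only.

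The members were bright. Sftpc held rank 3 to 14 of 45101 probe sets on every array, at 77.7% to 93.2% of the highest intensity of its array, and the rank was 8 to 179 for Sftpa1, 46 to 220 for Sftpb, 65 to 214 for Sftpd and 100 to 485 for Slc34a2. These ranks show where on the intensity range the probe sets lie and do not compare amounts of transcript between genes. They matter because quantile normalization, which was applied before testing, gives every array the same top values, so that a change shared by the brightest probe sets is reduced by construction. Changes below are log2 differences of quantile-normalized intensity ± the standard error that limma gives. Values on the scale of the deposited intensities are added where they change a call and for other members whose value depends on the scale. The verbs rose and fell are kept for a Benjamini-Hochberg adjusted p under 0.05 over the 12062 genes, which is also what passing means. In whole lung, fewer cells of a type and less RNA per cell cannot be told apart.

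**Figure D1:**
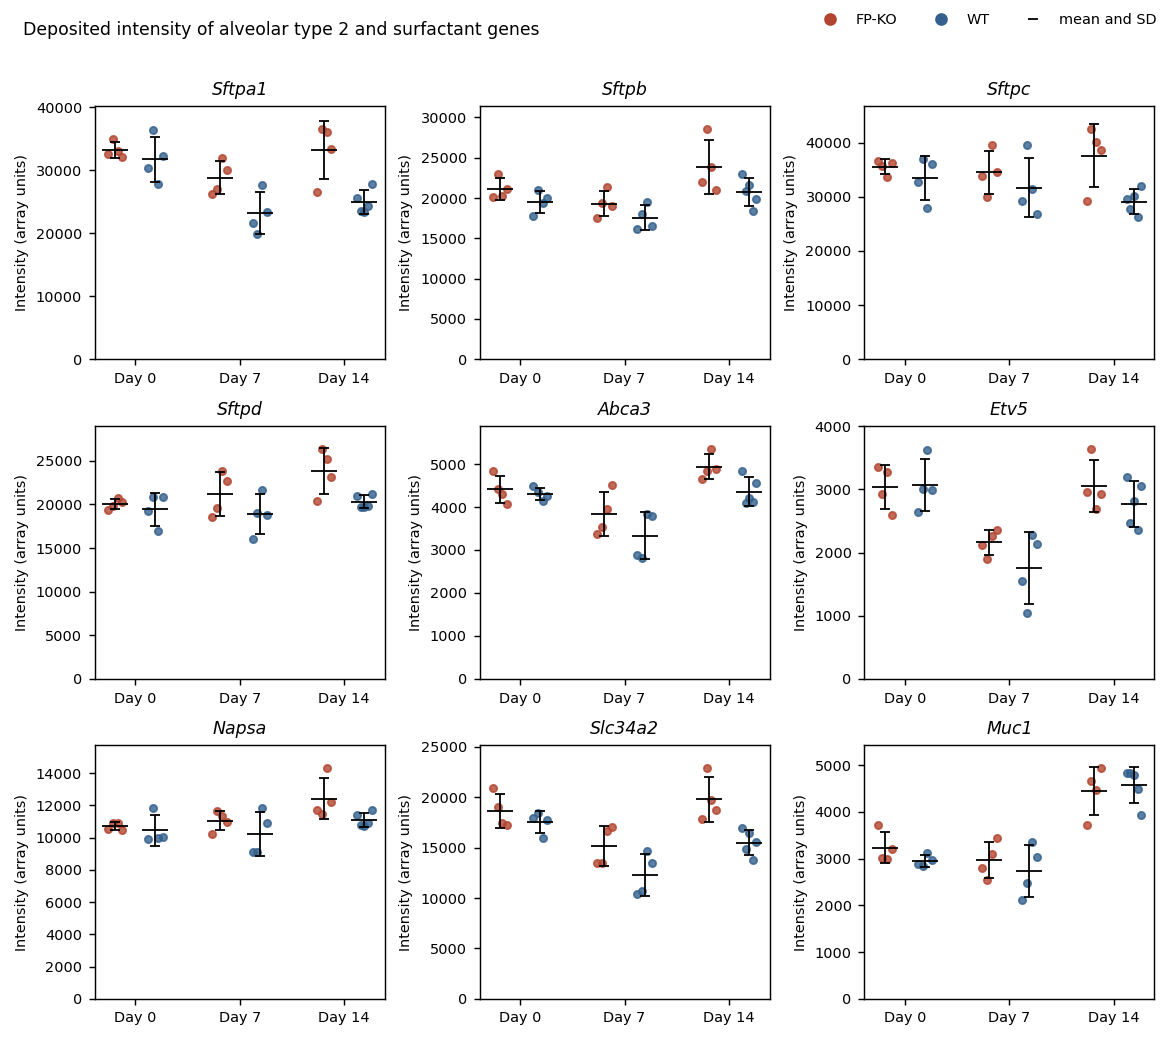
Deposited intensity (linear array units, axes from 0) of the 9 measured genes by day, 1 point for each lung, FP-KO left of WT on each day, with the mean and SD of each group. Etv5, Slc34a2 and Abca3 are lowest on Day 7, and Muc1 is highest on Day 14.

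The clearest change by Day 7 was a fall of 4 members in WT lungs. Etv5, Slc34a2, Abca3 and Sftpa1 were lower on Day 7 than on Day 0, and of these Etv5 and Slc34a2 also fell in FP-KO lungs. The 2 of 9 that fell in FP-KO lungs stand beside 10.7% of all tested genes that fell in the same comparison, and the 4 of 9 in WT lungs beside 18%. The median change of the 9 was -0.18 in FP-KO and -0.15 in WT lungs, against 0.00 and -0.01 over all tested genes in the same order. No member rose by Day 7 in either genotype, where 12.6% of genes rose in FP-KO and 17.1% in WT lungs.

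Etv5 is an ETS transcription factor that acts downstream of FGF and RAS signalling and helps to maintain type 2 cell identity in mice. Among the brightest probe sets of the 9 it had the largest change by Day 7 in both genotypes. Dimmer probe sets of Sftpa1 (-0.95 in WT) and Abca3 (-0.85 in FP-KO lungs) fell more than Etv5 did. In FP-KO lungs it read 3352, 2924, 3276 and 2591 on Day 0, 2126, 1899, 2263 and 2352 on Day 7 and 2950.2, 3644, 2681 and 2925 on Day 14. In WT lungs it read 2643, 3012, 3624 and 2989 on Day 0, 1553, 1047, 2273 and 2139 on Day 7 and 3190.1, 2459, 2809, 2354 and 3045 on Day 14. All 4 Day 7 lungs of each genotype lay below every Day 0 lung of that genotype, and WT No. 1 and 2 were the lowest of all 25. The change by Day 7 was -0.51 ± 0.18 in FP-KO lungs (adjusted p = 0.0434) and -0.85 ± 0.18 in WT lungs (adjusted p = 0.000848), in WT a level 0.555 times that of Day 0.

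Slc34a2, the sodium-phosphate cotransporter NaPi-IIb that takes up phosphate released from surfactant lipid, followed the same course. In FP-KO lungs it read 20914, 19003, 17414 and 17244 on Day 0, 13502, 13481, 16701 and 17004 on Day 7 and 17816, 22872, 19730.3 and 18754 on Day 14. In WT lungs it read 17975, 18427, 15953 and 17759 on Day 0, 10439, 10693, 14621 and 13455 on Day 7 and 16955, 14845, 16436, 13744 and 15521 on Day 14. Day 7 lay wholly below Day 0 in both genotypes, and the 3 lowest values of the gene were all from WT lungs of Day 7. It fell by Day 7 in FP-KO lungs (-0.37 ± 0.12, adjusted p = 0.0324) and in WT lungs (-0.54 ± 0.12, adjusted p = 0.00136). On the deposited scale the FP-KO value was -0.30 and did not pass (adjusted p = 0.0605).

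Abca3 encodes the transporter that pumps phospholipid into lamellar bodies. FP-KO lungs read 4826, 4421, 4311 and 4074 on Day 0, 3368, 3534, 3945 and 4519 on Day 7 and 4661, 4841, 5359 and 4890.0 on Day 14. WT lungs read 4481, 4355, 4144 and 4259 on Day 0, 2888, 2821, 3848 and 3781 on Day 7 and 4844, 4083, 4204, 4107 and 4559 on Day 14. The WT groups of Day 7 and Day 0 did not overlap, whereas FP-KO No. 4 of Day 7 lay within the Day 0 range. The FP-KO value by Day 7 was -0.26 ± 0.11 and did not pass (adjusted p = 0.0842), and Abca3 fell in WT lungs (-0.41 ± 0.11, adjusted p = 0.00529).

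Sftpa1, the gene of SP-A, had 32555, 35016, 33064 and 32084 in FP-KO lungs on Day 0, 26305, 27086, 31939 and 29989.7 on Day 7 and 26546, 36585, 36104 and 33421 on Day 14. The WT lungs had 30313, 36428, 27865 and 32223 on Day 0, 21590.4, 19904, 27696 and 23436 on Day 7 and 25515, 23577, 23393, 24389.8 and 27888 on Day 14. WT lungs of Day 7 lay below those of Day 0 without overlap, and the FP-KO groups of these days did so too. The FP-KO value was -0.19 ± 0.10, which did not pass (adjusted p = 0.188), and the gene fell in WT lungs (-0.37 ± 0.10, adjusted p = 0.00735). Its other probe set, dimmer and at rank 187 to 1076, gave -0.38 ± 0.18 in FP-KO lungs (adjusted p = 0.140 over 21403 probe sets) and -0.95 ± 0.18 in WT lungs (adjusted p = 0.000327, where 14.3% of probe sets fell). That probe set read 10722, 11599, 13456 and 16089 on Day 7 and 16767, 16510.2, 15594 and 14693 on Day 0 in FP-KO lungs. In WT lungs it read 7679, 5856, 12280.3 and 9979 on Day 7 and 16639.5, 18558, 15036 and 15524 on Day 0. The WT ranges of that probe set did not overlap either. After quantile normalization the size of the WT fall of Sftpa1 thus differed by more than 2 times on the log2 scale between the probe sets. On the deposited scale the brighter probe set gave -0.46 ± 0.11 in WT lungs. The part of the normalization in the difference between probe sets was not tested.

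The 250 bases before the annotated start of these 4 genes are shown because they fell together by Day 7 in WT lungs, with Sftpb as a surfactant gene that did not pass there. They come from a set of promoter sequences of RefSeq genes (GRCm38.p6) that held 7 of the 10 genes. Short motifs of factors known in the distal lung were searched on both strands: CTCAAG (the NKX2-1 core), CCGGAA (an ETS core), TGTTTAC (a FOXA core) and TTGCNNAA (paired C/EBP sites). Matches are in capitals, and no 2 overlap in the stretches shown. The stretch before Etv5 lies at chr16:22439571-22439820 on the minus strand, Slc34a2 at chr5:53049103-53049352 on the plus strand, Abca3 at chr17:24351773-24352022 on the plus strand, Sftpa1 at chr14:41131538-41131787 on the plus strand and Sftpb at chr6:72304360-72304609 on the plus strand.
Etv5: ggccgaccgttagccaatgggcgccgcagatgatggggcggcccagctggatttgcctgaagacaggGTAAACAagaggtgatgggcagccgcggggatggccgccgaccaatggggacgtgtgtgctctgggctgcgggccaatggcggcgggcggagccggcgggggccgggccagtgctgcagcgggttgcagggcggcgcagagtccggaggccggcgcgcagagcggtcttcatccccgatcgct
Slc34a2: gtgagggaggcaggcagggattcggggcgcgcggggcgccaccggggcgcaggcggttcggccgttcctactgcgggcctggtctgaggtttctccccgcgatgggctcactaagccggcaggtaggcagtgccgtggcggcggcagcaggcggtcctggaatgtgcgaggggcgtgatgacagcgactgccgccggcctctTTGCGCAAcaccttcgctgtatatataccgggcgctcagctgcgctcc
Abca3: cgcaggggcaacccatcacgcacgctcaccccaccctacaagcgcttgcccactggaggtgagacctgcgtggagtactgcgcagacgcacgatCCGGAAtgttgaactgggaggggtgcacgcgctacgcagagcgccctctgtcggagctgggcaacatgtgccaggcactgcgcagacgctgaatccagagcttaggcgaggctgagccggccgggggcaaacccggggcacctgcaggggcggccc
Sftpa1: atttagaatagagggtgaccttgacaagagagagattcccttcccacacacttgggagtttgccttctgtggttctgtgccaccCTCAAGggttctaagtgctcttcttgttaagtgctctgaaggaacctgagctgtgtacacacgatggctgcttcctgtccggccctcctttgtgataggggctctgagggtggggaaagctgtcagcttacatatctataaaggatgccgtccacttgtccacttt
Sftpb: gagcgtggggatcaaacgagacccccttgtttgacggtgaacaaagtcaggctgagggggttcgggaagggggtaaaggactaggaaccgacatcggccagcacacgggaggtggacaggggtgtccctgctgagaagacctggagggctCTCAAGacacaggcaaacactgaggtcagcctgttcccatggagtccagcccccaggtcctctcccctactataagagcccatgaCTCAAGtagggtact
The NKX2-1 core occurs 1 time before Sftpa1 and 2 times before Sftpb, and in 13.57% of 27025 RefSeq promoters of the same length. Abca3 has the ETS core (12.22% of promoters), Etv5 the FOXA core on the reverse strand, as GTAAACA (3.093%), and Slc34a2 the C/EBP pair (9.554%). Another listed start of Etv5 and the start of Muc1 held none of the motifs, and Lamp3 held the FOXA core. The 4 genes that fell in WT lungs thus share none of these letter strings in this window. A match here is a description of letters and says nothing of binding.

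Nkx2-1, the homeobox factor that drives surfactant genes, did not pass by Day 7 in FP-KO lungs (-0.34 ± 0.24, adjusted p = 0.316) or WT lungs (-0.20 ± 0.24, adjusted p = 0.549). Sftpc, the gene of SP-C and the most type 2-restricted of the surfactant proteins, read 36632, 35748, 33656 and 36323 in FP-KO lungs on Day 0, 33824, 30000.1, 39632 and 34626 on Day 7 and 29224, 42589, 40119.7 and 38655 on Day 14. The WT lungs read 32774, 36991, 27987 and 36093 on Day 0, 29169.8, 39516, 31428 and 26805 on Day 7 and 29679, 27701, 30089.5, 26192 and 32009 on Day 14. Ranges of all 3 days overlapped in each genotype. Its change by Day 7 was -0.03 ± 0.06 in FP-KO and 0.00 ± 0.06 in WT lungs, and on the deposited scale -0.05 ± 0.13 and -0.08 ± 0.13 in the same order, none of which passed. At ranks 3 to 14 quantile normalization leaves the values little room to differ, so the smaller standard errors there do not show precision. A further Sftpc probe set read 13.2 to 162.1 in all, near the floor of 24.3, and was not tested, and one of Napsa read 68.6 to 202.2 and passed in no comparison.

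The remaining members did not pass by Day 7. Sftpb gave -0.18 ± 0.10 in FP-KO and -0.15 ± 0.10 in WT lungs. Sftpd, the gene of SP-D, gave 0.00 ± 0.09 and -0.03 ± 0.09 in the same order. Napsa, an aspartic protease that cuts the SP-B precursor, gave -0.08 ± 0.08 and -0.08 ± 0.08. The membrane mucin Muc1 gave -0.16 ± 0.13 and -0.14 ± 0.13. In each of these 4 genes the Day 7 range overlapped the Day 0 range in both genotypes.

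**Figure D2:**
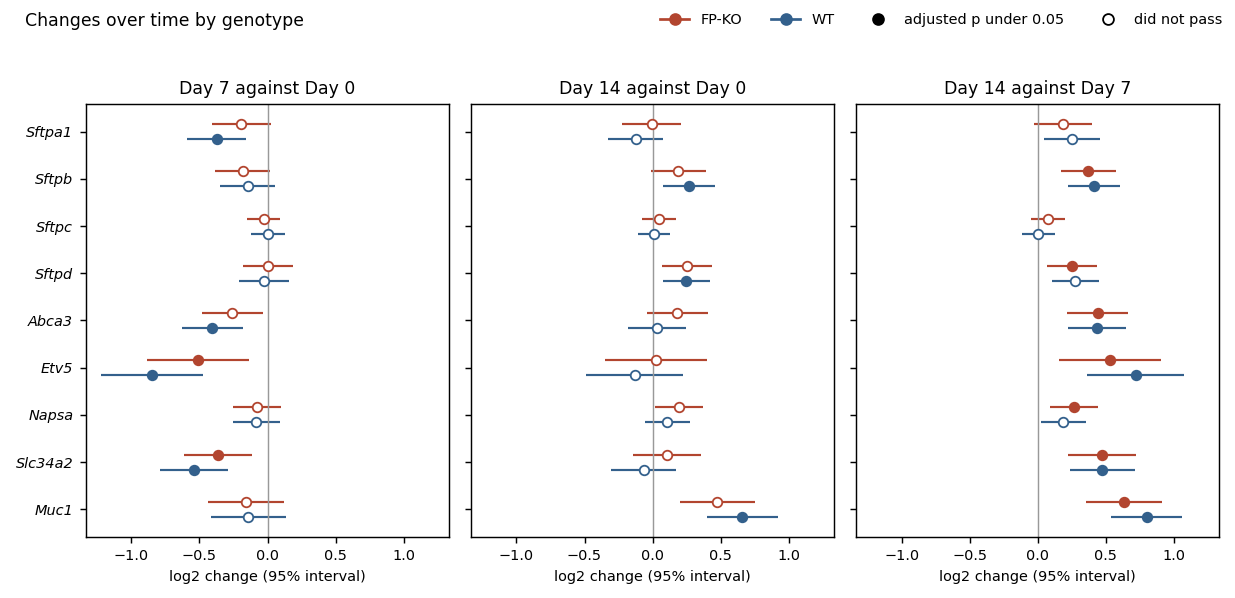
Log2 change of each gene over time (quantile-normalized intensity, x axis) with its 95% interval, FP-KO above WT, with filled points where the adjusted p was under 0.05. Day 7 against Day 0 shows falls of Etv5 and Slc34a2 in both genotypes, and Day 14 against Day 7 shows rises in most genes.

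Lungs of Day 7 fell into higher and lower ones in most members at once. In FP-KO lungs No. 1 and 2 had 1 of 9 members above their group mean each, and No. 3 and 4 had 9 each. In WT lungs of Day 7 the numbers were 1, 1, 9 and 8 of 9 for No. 1 to 4. The first principal component of all tested genes was 25, 24.4, 12.3 and 2.56 in these FP-KO lungs and 29.9, 33.9, 17.6 and 22.4 in these WT lungs, so the lungs with lower members lay farther from Day 0 as a whole. Its part in the members' values was not tested. Lamp3, a lysosomal protein of lamellar bodies read together with the prolyl isomerase gene Ppid, had 7347, 8372, 10228 and 11662 in FP-KO and 6024, 5645, 10155 and 9224 in WT lungs on Day 7, against 8714, 8492, 9945 and 9763 in FP-KO and 9408, 9004, 9271 and 9061 in WT lungs on Day 0. There too No. 1 and 2 were the lowest of Day 7. The 2 falls in FP-KO lungs rest on few arrays: 0 members passed without No. 1 or 2 of Day 0 or of Day 7, and 1 passed without No. 3 of either day, whereas the 4 falls of WT lungs passed without any 1 array.

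**Figure D3:**
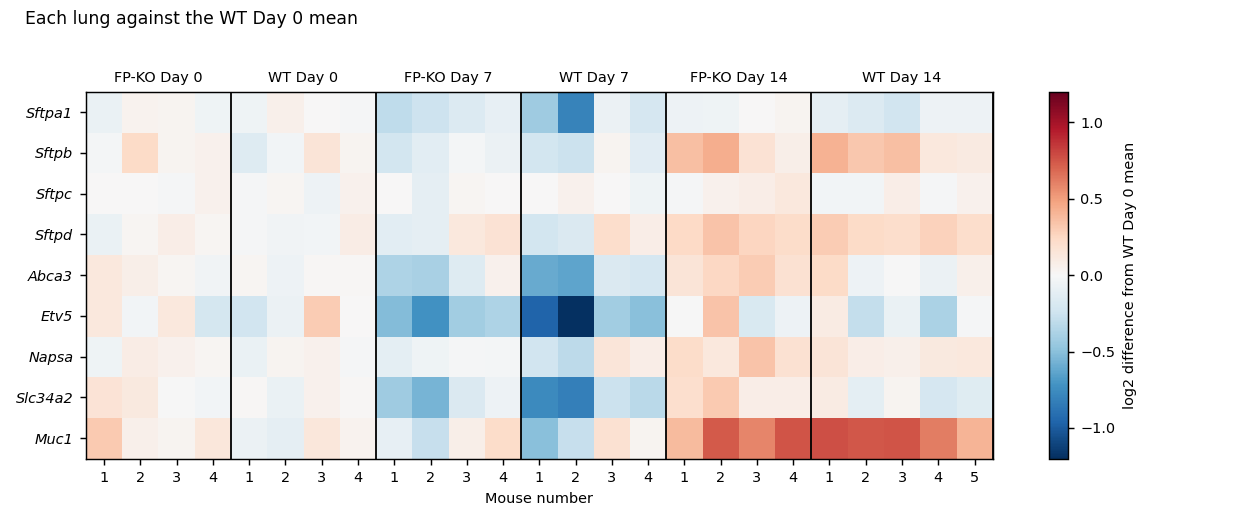
Log2 difference of each lung from the WT Day 0 mean (quantile-normalized intensity, colour) for the 9 measured genes, with lungs grouped by genotype and day and numbered as in the titles. On Day 7 lungs No. 1 and 2 of both genotypes are bluer than No. 3 and 4 in most genes, and Muc1 is red in all Day 14 lungs.

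Other probe sets of the members followed with less certainty. For Etv5 they gave -0.48 and -0.36 by Day 7 in FP-KO lungs and -0.65 and -0.42 in WT lungs, none of which passed over 21403 probe sets. For Abca3 the next brightest gave -0.28 in FP-KO and -0.36 in WT lungs, neither of which passed. The dimmest Abca3 probe set, at 60.8 to 323.7 in all, fell by Day 7 in FP-KO lungs (-0.85 ± 0.25, adjusted p = 0.0192, where 8.1% of probe sets fell) and did not pass in WT lungs (-0.43 ± 0.25, adjusted p = 0.198). It runs against the brighter Abca3 probe sets at Day 14, where it was lower than on Day 0 in WT lungs (-0.75, adjusted p = 0.0158, where 17.2% fell).

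Some genes linked to the type 2 cell in other ways also fell by Day 7. The counts of this and the following lists stand beside the shares of all tested genes. Those were 10.7% falling and 12.6% rising in FP-KO lungs, and 18% falling and 17.1% rising in WT lungs. Among 23 tested genes enriched in type 2 cells but not members, 5 fell and 2 rose in FP-KO lungs, and 13 fell and 3 rose in WT lungs. Bex2 fell by 1.29 in FP-KO and 1.69 in WT lungs on the log2 scale. Acoxl, an acyl-CoA oxidase-like gene, gave -0.72 ± 0.25 and -1.34 ± 0.25 in that order. Atp6v1c2, a subunit of the proton pump that acidifies vesicles, gave -1.05 ± 0.24 and -1.42 ± 0.24, and Lgi3 gave -0.59 ± 0.18 and -1.02 ± 0.18. Each of these 4 fell in both genotypes.

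Of 19 tested transcription factors of distal lung epithelium, 9 fell and 2 rose in FP-KO lungs, and 11 fell and 1 rose in WT lungs. Foxa1, a forkhead factor of lung epithelium, gave -0.48 ± 0.12 in FP-KO and -0.80 ± 0.12 in WT lungs, and the homeobox factor Irx2 gave -0.52 ± 0.17 and -0.85 ± 0.17. The ETS factor Elf5 did not pass in FP-KO lungs (-0.47 ± 0.20, adjusted p = 0.0848) and fell in WT lungs (-0.97 ± 0.20). Foxp2 gave -0.18 ± 0.23 in FP-KO lungs (adjusted p = 0.598) and fell in WT lungs (-0.77 ± 0.23).

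Etv5 is induced through FGF receptors, so their ligands, receptors and feedback regulators were counted as well. Of 19 tested, 7 fell and 3 rose in FP-KO lungs, and 9 fell and 5 rose in WT lungs. The ligand Fgf1 gave -0.65 ± 0.12 in FP-KO and -0.99 ± 0.12 in WT lungs. Fgfr2, the receptor of FGF7 and FGF10 on lung epithelium, gave -0.68 ± 0.19 and -0.95 ± 0.19, and Fgfr4 gave -0.94 ± 0.24 and -1.08 ± 0.24. Shcbp1, a SHC-binding protein of dividing cells, rose instead, by 2.11 ± 0.32 and 2.25 ± 0.32.

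Genes of surfactant handling were mixed. Of 16 tested for protein processing and the lamellar body, 5 fell and 3 rose in FP-KO lungs, and 5 fell and 4 rose in WT lungs. Cathepsin H, Ctsh, which helps to cut the SP-B and SP-C precursors, rose by 0.68 ± 0.14 in FP-KO and 0.73 ± 0.14 in WT lungs. The calcium channel Itpr2 fell (-0.60 ± 0.14 and -0.75 ± 0.14), as did the lysosomal transporter Abca5 (-0.66 ± 0.14 and -0.63 ± 0.14). P2ry2, the ATP receptor that triggers surfactant secretion, did not pass in FP-KO lungs (0.41 ± 0.37, adjusted p = 0.445) and rose in WT lungs (1.24 ± 0.37). Of 21 lipid synthesis genes 3 fell in FP-KO lungs, and 6 fell and 1 rose in WT lungs. Gpam, which makes the first committed step of glycerolipid synthesis, fell in both (-0.48 ± 0.10 in FP-KO and -0.55 ± 0.10 in WT lungs), while the choline phosphotransferase Chpt1 gave -0.33 ± 0.14 in FP-KO lungs (adjusted p = 0.0879) and fell in WT lungs (-0.58 ± 0.14).

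Surfactant is cleared by alveolar macrophages under the control of GM-CSF. Of 14 genes on a list for macrophages that clear surfactant, 4 rose and 2 fell in FP-KO lungs. In WT lungs 5 rose and 4 fell. The list also holds markers of these macrophages, so its counts do not measure clearance. Csf2rb2, a subunit of cytokine receptors of this family, gave 1.05 ± 0.21 in FP-KO and 1.50 ± 0.21 in WT lungs, and the scavenger receptor Marco gave 1.45 ± 0.34 and 1.12 ± 0.34. Fabp1, a fatty acid-binding protein, fell in both (-1.36 ± 0.39 and -2.59 ± 0.39), and so did the keratin Krt79 (-0.85 ± 0.19 and -1.25 ± 0.19).

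Among 20 epithelial genes that are not restricted to type 2 cells, 5 rose and 1 fell in FP-KO lungs, and 6 rose and 3 fell in WT lungs. The tight junction gene Cldn4 rose (1.76 ± 0.37 in FP-KO and 1.90 ± 0.37 in WT lungs), as did the keratin Krt18 (0.53 ± 0.10 and 0.84 ± 0.10), and the protease Prss8 fell (-0.61 ± 0.10 and -0.86 ± 0.10). Markers of other cells moved at the same time. Type 1 markers fell in 6 of 12 in FP-KO and 8 of 12 in WT lungs, with 1 rising in each. Macrophage markers rose in 9 of 11 in FP-KO and 11 of 11 in WT lungs. Their summed intensity was 28236 to 40071 in FP-KO and 36370 to 48212 in WT lungs on Day 7, against 16866 to 19177 in FP-KO and 15149 to 18105 in WT lungs on Day 0, and no macrophage marker was at the floor throughout a group. The sum of the 9 members was 128237 to 154106 in FP-KO and 109049 to 136274 in WT lungs on Day 7, and 146634 to 153902 in FP-KO and 128965 to 155759 in WT lungs on Day 0. Endothelial markers fell in 6 of 11 in FP-KO and 7 of 11 in WT lungs, club cell markers in 3 and 5 of 8, and ciliated markers in 3 and 4 of 8, in the same order. The summed club markers, of cells that share surfactant genes, were 116041 to 139458 in FP-KO and 102048 to 129119 in WT lungs on Day 7, against 140510.0 to 152873 in FP-KO and 127064 to 164754 in WT lungs on Day 0. The part of the changed cell mixture in the members' falls was not tested.

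**Figure D4:**
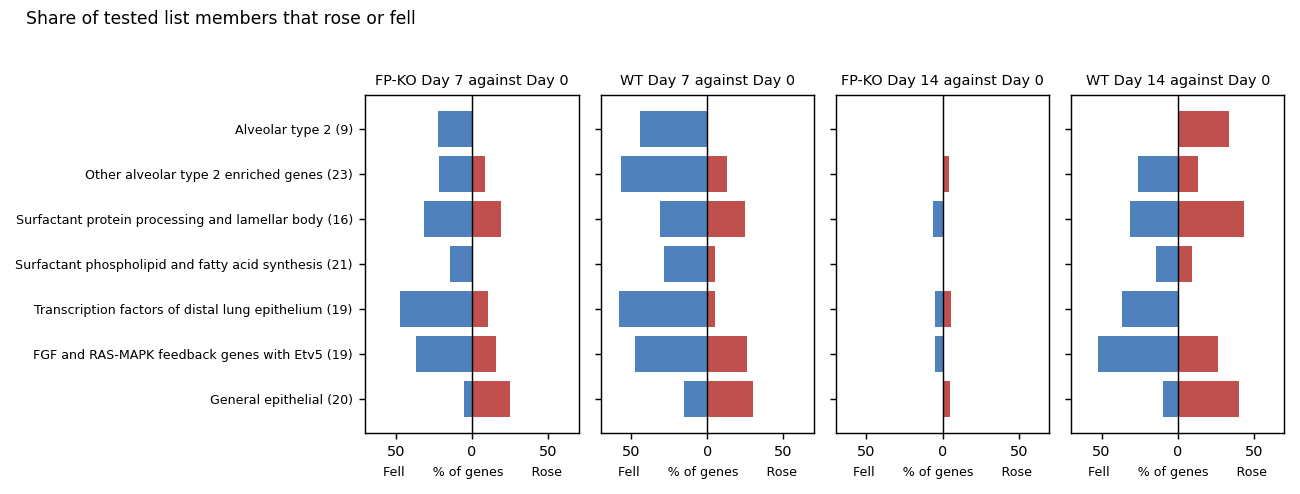
Share of tested genes of each list (number tested in brackets) that rose (right, red) or fell (left, blue) with an adjusted p under 0.05, by genotype, on Day 7 and Day 14 against Day 0. Falls prevail for type 2 genes, transcription factors and FGF genes on Day 7, and few genes pass in FP-KO lungs on Day 14.

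The members that had fallen in WT lungs were compared again at Day 14. Their brightest probe sets lay within -0.01 to 0.18 of Day 0 in FP-KO and -0.13 to 0.03 in WT lungs (log2). Sftpa1 was lower in WT lungs on other measures. The other Etv5 probe sets gave 0.19 and 0.24 in FP-KO and 0.25 and 0.39 in WT lungs, and none passed. The next brightest of Abca3 gave 0.32 in FP-KO and 0.37 in WT lungs and did not pass. The dimmest of Abca3 gave -0.59 in FP-KO lungs, which did not pass, and was lower in WT lungs, as given above. Muc1 was above Day 0 in WT lungs. In FP-KO lungs limma passed 0 of 9 members against Day 0 (3 at an unadjusted p under 0.05), beside 3.26% of all tested genes in either direction, and 1 of 9, Muc1, with the replicate number as a block (adjusted p = 0.036). In WT lungs 3 of 9 rose, Muc1, Sftpb and Sftpd, beside 19.1% of all tested genes. In the fit with the brightest probe set of each gene, no member passed as lower than on Day 0 on the quantile scale. There 1.41% of genes fell in FP-KO and 19.5% in WT lungs.

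Muc1, a mucin-like membrane protein of the apical surface, read 3719.7, 3021, 2992 and 3208 in FP-KO lungs on Day 0, 2800.0, 2552, 3103 and 3443 on Day 7 and 3715, 4662, 4471 and 4932 on Day 14. In WT lungs the values were 2880.1, 2839, 3129 and 2969.5 on Day 0, 2109.6, 2472, 3351 and 3039 on Day 7 and 4826, 4834, 4793, 4492 and 3942 on Day 14. Day 14 lay above both earlier days in every WT lung, while the lowest FP-KO lung of Day 14 was level with the highest of Day 0. The change from Day 0 was 0.48 ± 0.13 in FP-KO lungs, which did not pass (adjusted p = 0.0505), and 0.66 ± 0.13 in WT lungs (adjusted p = 0.000306), a level 1.58 times that of Day 0.

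Sftpb, whose product SP-B is indispensable for breathing, gave 20137, 22983, 20262 and 21087 in FP-KO lungs on Day 0, 17556, 19384, 21319.6 and 18975 on Day 7 and 21980.0, 28593, 23790.3 and 21036 on Day 14. For WT lungs it gave 17784, 20976, 19387 and 19987 on Day 0, 16132, 18043, 19559 and 16544 on Day 7 and 23039.9, 20834, 21667, 18378 and 19919 on Day 14. The Day 14 and Day 0 ranges overlapped in both genotypes. Its Day 14 minus Day 0 value was 0.19 ± 0.10 in FP-KO lungs (adjusted p = 0.3) and 0.27 ± 0.09 in WT lungs (adjusted p = 0.0275), but on the deposited scale the WT value was 0.09 and did not pass (adjusted p = 0.489).

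Sftpd read 19324, 19855, 20772 and 20256 in FP-KO lungs on Day 0, 18504, 19574, 23848 and 22664 on Day 7 and 20379, 26396, 25251 and 23185 on Day 14. The WT values were 19194, 20861, 16897 and 20816 on Day 0, 16047, 19019.6, 21674 and 18732 on Day 7 and 20996, 19713, 19706, 19866 and 21186 on Day 14. WT lungs of Day 14 lay within a narrow range that overlapped the Day 0 range. The change from Day 0 was 0.25 ± 0.09 in FP-KO lungs (adjusted p = 0.118) and 0.25 ± 0.08 in WT lungs (adjusted p = 0.0231), with 0.07 on the deposited scale in WT lungs (adjusted p = 0.616).

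The scales also disagreed on Sftpa1, which on the deposited scale fell in WT lungs by Day 14 (-0.34 ± 0.11, adjusted p = 0.0138, where 19% of genes fell), and after quantile normalization gave -0.13 ± 0.10 (adjusted p = 0.33). Its other probe set gave 0.02 ± 0.18 in FP-KO lungs and -0.38 ± 0.17 in WT lungs (adjusted p = 0.0773), so the WT value depends on scale and probe set. Of the 3 rises in WT lungs, that of Muc1 alone passed without WT No. 1 or 2 of Day 0 or without WT No. 1 of Day 14. The other members passed in neither genotype: Napsa gave 0.19 in FP-KO and 0.11 in WT lungs, Abca3 0.18 and 0.03, Sftpc 0.05 and 0.01, Slc34a2 0.10 and -0.07, and Etv5 0.02 and -0.13. Sftpa1 was at -0.01 in FP-KO lungs. On the deposited scale Sftpc gave -0.19 and Slc34a2 -0.18 in WT lungs, neither of which passed. Napsa itself read 10519.7, 10931, 10887 and 10454 in FP-KO lungs on Day 0, 10250.4, 11649, 11354 and 10983 on Day 7 and 11739.5, 11446, 14302 and 12216 on Day 14. It read 9894, 11869.7, 9978 and 10047 in WT lungs on Day 0, 9120.4, 9104, 11822 and 10919 on Day 7 and 11390.2, 10809, 10708, 10906 and 11727 on Day 14. FP-KO lungs of Day 14 lay above those of Day 0 without overlap, and the WT ranges overlapped on all days.

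From Day 7 to Day 14 members rose in both genotypes. In FP-KO lungs 7 of 9 rose, beside 10.7% of all tested genes, and in WT lungs 5 of 9, beside 3.56%. Muc1 led in both (0.63 ± 0.13 in FP-KO and 0.80 ± 0.13 in WT lungs), followed by Etv5 (0.53 ± 0.18 and 0.72 ± 0.17), Slc34a2 (0.47 ± 0.12 and 0.47 ± 0.12), Abca3 (0.44 ± 0.11 and 0.44 ± 0.10) and Sftpb (0.37 ± 0.10 and 0.41 ± 0.09). Napsa (0.27 ± 0.08) and Sftpd (0.25 ± 0.09) also rose in FP-KO lungs. In WT lungs they gave 0.19 ± 0.08 (adjusted p = 0.144) and 0.27 ± 0.08 (adjusted p = 0.0541). Sftpc (0.08 ± 0.06 and 0.00 ± 0.06) and Sftpa1 (0.18 ± 0.10 and 0.25 ± 0.10) passed in neither genotype. The median change of the 9 was 0.37 in FP-KO and 0.41 in WT lungs, against 0.00 over all genes in both, and on the deposited scale 0.30 in FP-KO and 0.24 in WT lungs. On the deposited scale Napsa (0.16) and Sftpd (0.17) did not pass in FP-KO lungs, nor did Slc34a2 (0.34) and Sftpb (0.24) in WT lungs. There Sftpa1 gave 0.12, Sftpd 0.11 and Sftpc -0.11 in WT lungs, none of which passed. Markers of other cells moved too. Type 1 markers rose in 8 of 12 in FP-KO and 7 of 12 in WT lungs, and endothelial markers in 4 and 3 of 11. Macrophage markers fell in 3 of 11 in FP-KO and 0 of 11 in WT lungs. Of all tested genes 2742 passed in either direction in FP-KO lungs, of which 1294 rose. In WT lungs 716 passed, of which 430 rose. Falls over all genes were thus also more common in FP-KO lungs. The difference between genotypes in this change passed for 0 of 11 macrophage markers. The part of these other cells in the members' rises was not tested. These rises and the falls by Day 7 share the Day 7 lungs. The FP-KO count was 4 without No. 1 or No. 2 of Day 7 or without No. 1 or No. 2 of Day 14, and the WT count was 1 without No. 1 or 2 of Day 7 or without No. 1 of Day 14. Within the set of WT No. 4 and 5 and FP-KO No. 3 and 4, the counts were 1 in FP-KO and 0 in WT lungs.

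After quantile normalization no member passed between FP-KO and WT lungs on any day. On Day 0, 0 of 9 passed (0 at an unadjusted p under 0.05, beside 0.0166% of all genes passing), and on Day 7 likewise 0 passed and 0 had an unadjusted p under 0.05 (0.0166%). On Day 7 all of Etv5 (0.34 ± 0.18, 95% interval -0.03 to 0.71), Slc34a2 (0.24 ± 0.12, -0.01 to 0.49), Abca3 (0.19 ± 0.11, -0.03 to 0.41) and Sftpa1 (0.17 ± 0.10, -0.05 to 0.38) had values higher in FP-KO lungs with intervals that include 0. On the deposited scale the intervals of Sftpa1 (0.32 ± 0.11, 0.09 to 0.55, adjusted p = 0.494) and Slc34a2 (0.31 ± 0.12, 0.07 to 0.55, adjusted p = 0.532) lay above 0, and neither passed over all genes. The other Sftpa1 probe set gave 0.50 ± 0.18 (adjusted p = 0.685). The fall by Day 7 was not shown to differ between genotypes, and in the test of that difference 0 of 9 members passed, with 0 at an unadjusted p under 0.05 (0% of genes passing). For Etv5 the FP-KO minus WT difference in the change by Day 7 was 0.34 ± 0.26 (95% interval -0.19 to 0.87). Differences between genotypes in the change from Day 0 to 14 (3.12% of genes passing) and from Day 7 to 14 (0.00829%) passed for 0 of 9 members too, with 0 at an unadjusted p under 0.05 in each, after quantile normalization. On the deposited scale that difference from Day 0 to 14 was 0.33 ± 0.15 for Sftpa1 (95% interval 0.01 to 0.65, adjusted p = 0.257), against 0.12 ± 0.14 after quantile normalization.

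On Day 14, when 10.5% of all tested genes differed between genotypes (4.89% higher and 5.64% lower in FP-KO lungs), 0 of 9 members did (0 at an unadjusted p under 0.05). The FP-KO minus WT differences ran from -0.05 for Muc1 to 0.23 for Slc34a2 (95% interval -0.00 to 0.47), with Abca3 at 0.19 and Etv5 at 0.15. On the deposited scale 2 members were higher in FP-KO lungs, where 4.78% of genes were: Sftpa1 (0.40 ± 0.11, adjusted p = 0.0188) and Slc34a2 (0.35 ± 0.11, adjusted p = 0.0436). Sftpc gave 0.36 ± 0.12 there (adjusted p = 0.0554), against 0.05 ± 0.06 after quantile normalization. Sftpd gave 0.22 ± 0.10 and Sftpb 0.19 ± 0.09, against 0.02 ± 0.08 and -0.01 ± 0.09, and did not pass. In the deposited intensities Sftpa1 averaged 33164 ± 4626 in FP-KO (SD, n = 4) and 24952 ± 1842 in WT lungs (SD, n = 5), Sftpc averaged 37647 ± 5845 and 29134 ± 2246, and Slc34a2 averaged 19793 ± 2197 and 15500.1 ± 1275. In Sftpa1 and Sftpc FP-KO No. 1 lay within the WT range and the other 3 lay above every WT lung, and in Slc34a2 all 4 lay above. The 2 calls depend on single arrays, that of Slc34a2 on more of them. Without FP-KO No. 2, the lung that lay among those of Day 0, 0 members passed (Sftpa1 0.35, adjusted p = 0.0918, and Slc34a2 0.28, adjusted p = 0.193). Also 0 passed without FP-KO No. 3. Without FP-KO No. 1 the number was 3, and both calls held without WT No. 1. Sftpa1 alone passed without FP-KO No. 4 or WT No. 2, 3 or 4. Without WT No. 5 Sftpa1 passed, Slc34a2 did not (adjusted p = 0.0544) and Sftpc did (0.39, adjusted p = 0.0427).

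**Figure D5:**
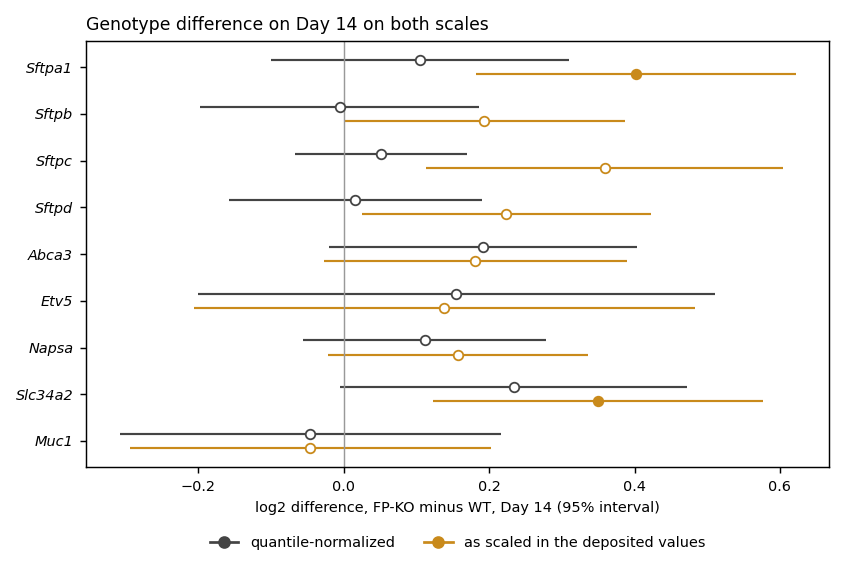
FP-KO minus WT log2 difference on Day 14 with its 95% interval (x axis) for the 9 measured genes, after quantile normalization and on the deposited scale, with filled points where the adjusted p was under 0.05. Sftpa1, Sftpc, Slc34a2, Sftpd and Sftpb move to the right on the deposited scale, and the dimmer genes Abca3, Etv5 and Muc1 stay in place.

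Within the sets of Day 14 arrays the deposited-scale difference of Sftpa1 was 0.37 (FP-KO No. 1 and 2 against WT No. 1 to 3) and 0.41 (FP-KO No. 3 and 4 against WT No. 4 and 5), that of Slc34a2 0.33 and 0.40, and that of Sftpc 0.28 and 0.44. The quantile-normalized differences in the same sets were 0.11 and 0.08 for Sftpa1 and 0.25 and 0.26 for Slc34a2. The sign held in both sets for these genes, whereas Muc1 gave -0.20 and 0.16 after quantile normalization. The highest intensity on an array was 34566 to 51674 in FP-KO and 33012 to 37492.5 in WT lungs on Day 14, and its part in the difference between scales was not tested. Without FP-KO No. 2 the count after quantile normalization was again 0 of 9.

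Some other genes of the type 2 cell did differ on Day 14. The list counts here and in the next paragraph stand beside 4.89% of all tested genes higher and 5.64% lower in FP-KO lungs. Of the 23 non-member genes enriched in type 2 cells 5 were higher and 1 lower in FP-KO lungs, among them Bex2 (1.31 ± 0.24), Acoxl (1.03 ± 0.24) and Atp6v1c2 (0.81 ± 0.23). Against Day 0 none of the 3 passed in FP-KO lungs on Day 14 (Bex2 -0.88 ± 0.25, Acoxl -0.81 ± 0.25 and Atp6v1c2 -0.38 ± 0.24, adjusted p = 0.052, 0.0738 and 0.405 in this order), and all 3 were lower in WT lungs (-2.28 ± 0.24, -1.78 ± 0.24 and -1.25 ± 0.23). Of the non-member genes named here, the FP-KO minus WT difference in the change from Day 0 to 14 passed for Bex2 (1.40, adjusted p = 0.0312) and for Fgf1 (0.63, adjusted p = 0.0431). In that test 1 of the 23 passed as positive and 1 as negative. On the FGF list 1 of 19 passed as positive, and 2 of 14 on the macrophage clearance list passed as negative. Over all tested genes 3.12% passed in either direction. These values and the list counts below are over all Day 14 arrays, FP-KO No. 2 included. Their dependence on that lung was not tested.

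Among transcription factors 1 of 19 was higher in FP-KO lungs on Day 14 and none was lower, namely Foxa1 (0.43 ± 0.11), which was below Day 0 in both genotypes (-0.43 ± 0.12 in FP-KO and -0.96 ± 0.11 in WT lungs). The FGF list had 3 higher and 1 lower, with Fgf1 at 0.58 ± 0.12 and Shcbp1 at -1.12 ± 0.30. Processing genes had 2 higher and 2 lower (Abca5 0.60 ± 0.13, Ctsh -0.52 ± 0.13 and P2ry2 -1.11 ± 0.35 are named), and lipid synthesis genes 2 higher, Gpam (0.41 ± 0.09) and Lpin1 (0.56 ± 0.17), a phosphatidate phosphatase. The list for macrophages that clear surfactant had 3 higher and 3 lower, with Fabp1 at 1.66 ± 0.37, Krt79 at 0.97 ± 0.18 and Csf2rb2 at -0.64 ± 0.20. General epithelial genes had 3 lower of 20. Macrophage markers were lower in 7 of 11, with sums of 15888 to 29460 in FP-KO (median 28589) and 36549 to 41584 in WT lungs. The lowest of these FP-KO sums lay below the FP-KO range of Day 0 (16866 to 19177). Ciliated markers were higher in 6 of 8 (sums of 11211 to 13746 in FP-KO and 7583 to 9062 in WT lungs), and club markers in 3 of 8 (115134 to 171222 and 91936 to 108599). The sum of the 9 members was 139010 to 181629 in FP-KO and 124429 to 140436 in WT lungs. The part of these cells in the members' values was not tested.

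The genes whose profile over the 25 arrays lay nearest to that of Etv5, by the root mean square difference of centred log2 values, were its fellow member Slc34a2 (0.18), Mamdc2 (0.19), the chromatin remodelling ATPase Smarca2 (0.20), Mid1ip1 (0.20) and Ushbp1 (0.20). The profile of Etv5 itself has an SD of 0.41. In WT lungs by Day 7 Mamdc2 gave -0.86, Ushbp1 by -0.74, Mid1ip1 by -0.60 and Smarca2 by -0.59, beside -0.85 for Etv5. Nearest to Muc1, whose SD was 0.37, were Gas6 (0.17), a ligand of TAM receptors, the type 1 cell water channel Aqp5 (0.17), the alveolar claudin Cldn18 (0.18), Arhgap33 (0.19) and Tmc4 (0.19). By Day 14 in WT lungs these gave 0.56, 0.48, 0.78, 0.56 and 0.61 in that order, beside 0.66 for Muc1. All points share the 25 arrays and their scaling, so the nearness is a description.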

How the data were processed

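RNA of 25 whole lungs from female mice, 6 ug of total RNA each, was labelled as cRNA and read on Affymetrix mouse 430 2.0 arrays, per the labels' protocols. The deposited values are linear intensities, 1 per probe set and array, which the authors scaled so that, as the values show, the mean without the top and bottom 2% is 500. The software, summary method and background step are not given in the sources used here.

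From the deposited intensities, values under 24.3 (the 20th percentile) were raised to it, log2 was taken, and arrays were quantile normalized. Of 45101 probe sets 64 were controls, 932 had several symbols, 9160 had none and 34945 had 1, of which 34741 matched RefSeq by gene number and 204 kept the array's symbol. For each of 18193 genes the probe set of highest mean was used, and 12062 genes that exceeded the median of their array in 4 or more arrays were tested with limma 3.58.1 (R 4.3.3): 6 group means, 12 contrasts, Benjamini-Hochberg adjustment over all 12062. The fit on deposited intensities without quantile normalization used the same steps, and single probe sets were fitted over 21403. The limma fit alone was tested on simulated data, for WT Day 7 against Day 0. The other steps and contrasts were not tested in this way. No column of values was left unmapped.

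All members are named, with up to 4 genes of each pathway list that had the largest change among those passing, Nkx2-1, Fgfr2 and Ctsh, and the 5 genes nearest to Etv5 and to Muc1. The members and lists were chosen with earlier results of these data known. Lpcat1, Etv1, Etv4, Elf3, Grhl2 and Marco stand in more than 1 list. Deviations of same-numbered FP-KO and WT lungs from their group means had a correlation over 0.1 in every pair at baseline (0.12 to 0.34) and on Day 7 (0.14 to 0.22), whereas the Day 14 pairs ran from -0.31 to 0.44. The labels give only the number, and lungs of different numbers were not compared. The main fit has no replicate block. Figures were drawn with matplotlib 3.10.9.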

Additional observations from a re-analysis of the deposited data

Results flagged for a closer look

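Of 54 groups of 4 or 5 lungs tested with Dixon's ratio (the gap of the end value to its neighbour over the whole range), 2 held a lung past the critical value, where chance gives about 1 in 20. FP-KO Day 7 No. 2 was low in Sftpc, with a ratio of 0.864: its normalized log2 value was 14.89, and the other 3 lungs lay at 15.01 to 15.02. Of those, No. 1 and 4 both held rank 7 and so received the same value from quantile normalization. In deposited intensities No. 2 read 30000 against 33824, 39632 and 34626, which lay much farther apart. WT Day 0 No. 2 was low in Abca3, with a ratio of 0.920: its value was 12.02 and the other 3 lay at 12.09 to 12.10, although its deposited intensity of 4355 lay within the range of its group. Both differences are small, and on the normalized scale the other lungs of these groups lay very close together.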

How the results depend on the processing

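The 4 falls in WT lungs by Day 7 kept their direction and numbered 3 to 4 under 12 alternatives (Sftpa1 did not pass with only the groups of the comparison) and 4 without any 1 array. By Day 7 in FP-KO lungs the 2 falls became 1 on the deposited scale, with no filter on dim probe sets, with every probe set on its own and with only the groups of the comparison, and 0 with a common array median, and they numbered 0 to 3 without 1 array. From Day 0 to 14 in FP-KO lungs 1 member in place of 0 passed with the floor at the 40th percentile, with the filter in all 25 arrays, with trend and robust, with array weights, with a term for the set of Day 14 arrays and with WT No. 1 to 3 and FP-KO No. 1 and 2 alone (0 without any 1 array). The 3 rises in WT lungs by Day 14 became 1 on the deposited scale (with 1 fall beside it), with a common array median and with WT No. 4 and 5 and FP-KO No. 3 and 4 alone, and numbered 1 to 3 without 1 array. From Day 7 to 14 the 7 rises in FP-KO lungs became 1 with a common array median, with only the groups and with FP-KO No. 3 and 4 alone (4 to 7 without 1 array), and the 5 in WT lungs became 3 on the deposited scale and with a common array median, 2 with only the groups and 0 with WT No. 4 and 5 alone (1 to 7 without 1 array). Between genotypes on Day 14 the count of 0 became 2 on the deposited scale and was 0 without any 1 array, and on the deposited scale without 1 Day 14 array, a combination chosen after seeing the data, it was 0 to 3 (0 without FP-KO No. 2 or No. 3). Sets of arrays and single-comparison fits hold fewer samples, and the cause of the other shifts was not tested.

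With the replicate number as a block, 1 member, Muc1, passed from Day 0 to 14 in FP-KO lungs in place of 0, while Sftpd also passed from Day 7 to 14 in WT lungs (0.28), and no other count moved by over 1.5 times. Same-numbered lungs deviated together in every pair on Day 0 and Day 7, where the block changed no call between genotypes, and not in every pair on Day 14. Lungs of different numbers were not compared, so these correlations do not show that the number marks a pairing. Of 610 alternatives for single members' changes, 482 kept direction and side of the threshold, 103 no longer passed, 25 newly passed and 0 reversed. The number of arrays limits the precision, and the main probe sets lie far above the array median, while the dimmest of Sftpc, Abca3 and Napsa lie near or below it.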
